A study of Danio rerio with 6 samples.

Results

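The genes described here are those of the cell division cycle and of DNA replication in the regenerating zebrafish ventricle. They were taken by name from a table of 31701 genes. The symbols began with ccna, ccnb, ccnd, ccne or ccng (cyclins), cdk (cyclin-dependent kinases), cdc, mcm2 to mcm10 (the minichromosome maintenance family), aurk (Aurora kinases), plk (Polo-like kinases), bub (spindle checkpoint) or e2f, or were mki67, top2a or pcna. The 15 genes whose symbols begin with cdc42 were left out, since Cdc42 is a small GTPase known for its part in cell shape. This gave 91 genes, of which 77 passed the filter on low counts and 14 did not.

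A cell commits to division in G1, when D-type cyclins activate Cdk4 and Cdk6 and free the E2F transcription factors from the retinoblastoma protein. Cyclin E with Cdk2 then opens S phase, in which the DNA is copied with the help of the Mcm helicase and the sliding clamp Pcna. Cyclins A and B with Cdk1, the Polo and Aurora kinases and the Bub checkpoint proteins take the cell through mitosis, and the anaphase-promoting complex ends it by marking cyclins for destruction. Adult zebrafish rebuild lost heart muscle chiefly by division of existing cardiomyocytes, while epicardial, endocardial and immune cells of the wound divide as well.

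Apical ventricle tissue was taken 7 days after part of the apex had been cut away from hearts of adult AB-strain zebrafish. All fish carried the TRE3G:tbx20 responder, which encodes tbx20 and mCherry behind a doxycycline-responsive promoter with a cryaa:EGFP lens marker, and all received doxycycline. Control fish had the responder alone. The tbx20-overexpressing fish also had the cmlc2:TetON-3G driver with its cryaa:mCherry lens marker. The cmlc2 promoter acts in cardiomyocytes, so the transgene was driven there, while the RNA came from every cell of the tissue. Each group had 3 libraries, and tissue of 6, 8 and 8 hearts was pooled in replicates 1, 2 and 3, so that single hearts cannot be seen. The libraries were described as independent biological replicates.

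The study also measured cdk1, cdk4, ccnb1 and ccnd1 by quantitative PCR, and its primers are shown because they mark the cell cycle genes that were chosen for a separate assay. The primers read a short stretch of each transcript, whereas the counts used here cover all annotated exons. They are printed 5′ to 3′ in lower case, with no part in capitals, as the study's primer table lists them.
cdk1, primer 1: ttggggtcccagtaagagtcta
cdk1, primer 2: ggtgtggaatagcgtgaagc
cdk4, primer 1: gctggtgtttgaacatgtgg
cdk4, primer 2: agctgctgcatcaggtctc
ccnb1, primer 1: aaggttcaacatggcgttaag
ccnb1, primer 2: cagccggaggtctccatag
ccnd1, primer 1: ttccttgccaaactgcctat
ccnd1, primer 2: gcttgcgatgaagttgacg

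Total counts lay between 12993988 and 17754483 per library. The transgene's own gene, tbx20, had 41.3, 8.59 and 20.3 CPM (counts scaled to a common library total, here after TMM normalization) in control replicates 1, 2 and 3 and 133, 19.0 and 37.2 CPM in tbx20-overexpressing replicates 1, 2 and 3. Each pair showed more tbx20 in the tbx20-overexpressing library, while the groups overlapped (log2 fold change of tbx20 1.43, standard error 0.75, edgeR adjusted p = 0.649; in the blocked model 1.24, adjusted p = 0.0479). Leaving out a library moved the unpaired value of tbx20 between 0.26 (without tbx20-overexpressing replicate 1) and 2.13 (without control replicate 1). TMM gave the control libraries factors of 0.748 to 1.01 and the tbx20-overexpressing ones 1.02 to 1.31. Total-count scaling, which omits these factors and which FPKM values also use, moved the median log2 fold change of all 15686 genes tested from 0.04 to 0.38. A sign below is therefore that under TMM. Of the 77 tested cell cycle genes, 31 had a negative log2 fold change under TMM, and 25 of these were positive under total-count scaling. The 6 that stayed negative were mcm4, mcm8, ccng2, plk2a, cdk9 and aurkaip1, and 0 genes turned from positive to negative. Among the 6, mcm4 (-0.02) and aurkaip1 (-0.05) lay near 0 under total-count scaling.

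On the scale of FPKM (counts divided by exonic length and by the total of the library), which allows levels of different genes to be compared, mean levels of the tested cell cycle genes in control ran from 0.183 (cdk6) to 405 (ccng1). The highest was ccng1, a cyclin G gene known as a target of p53, with 379, 479 and 356 FPKM in control and 402, 477 and 368 FPKM in tbx20-overexpressing libraries. The sliding clamp pcna came next at 48.9 ± 4.29 FPKM in control and 62.4 ± 2.37 FPKM in tbx20-overexpressing hearts (SD, n = 3). The genes of the Mcm2 to Mcm7 helicase lay well below it, between 8.59 and 15.6 FPKM in control, and cdk1 stood at 12.5 FPKM. Several mitotic genes were lower still, with mki67 at 2.01, plk1 at 3.35, aurkb at 2.58 and aurka at 1.38 FPKM in control hearts. Among the D-type cyclin genes, ccnd2a was the highest at 10.4 FPKM in control, against 3.46 FPKM of ccnd1 and 1.12 FPKM of ccnd2b. The order of neighbours such as mcm7 (13.7 FPKM), mcm5 (13.6 FPKM) and mcm4 (13.6 FPKM) cannot be told apart from their spread.

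**Figure D1:**
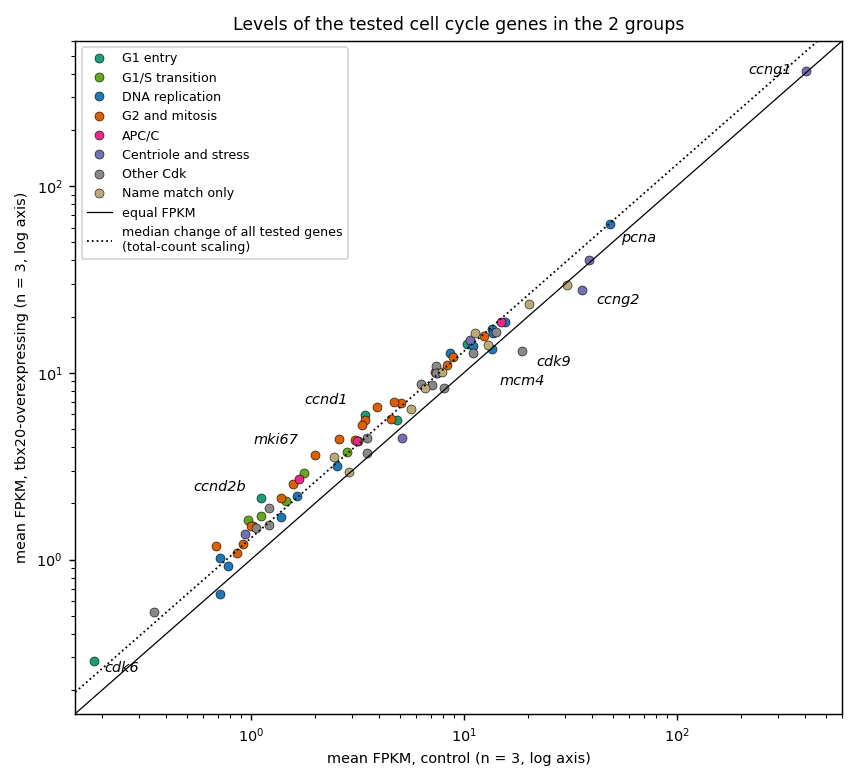
Mean FPKM of the 77 tested cell cycle genes in control (horizontal, log axis) and tbx20-overexpressing libraries (vertical, log axis), n = 3 each, coloured by role. Most points lie near the dotted line, which marks the median change of all tested genes under total-count scaling. Furthest below the line of equal FPKM lie cdk9 and ccng2, while plk2a, mcm8, aurkaip1 and mcm4 lie nearer below it.

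The 14 genes that did not pass the filter reached at most 12 counts in any library. They were ccnd3 and cdk21 of the D-type cyclin and kinase group, e2f5, the Mcm paralogues mcm3l and mcm6l, ccna1, cdc14aa, cdc25d, cdk14, cdk15 and the Cdk5 activator genes cdk5r1a, cdk5r1b, cdk5r2a and cdk5r2b. Of these, cdk5r1a, cdk5r2a and cdk5r2b had 0 counts in all 6 libraries. No comparison was made for these genes.

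The first question was whether the cell cycle genes differed between tbx20-overexpressing and control hearts. A gene was called at an unadjusted p under 0.05 with an absolute log2 fold change above 0.5, the rule of the study's Results, from edgeR's quasi-likelihood test over all genes. No cell cycle gene was called higher (0 of 77), where 3.27% of all genes tested were. A single one, cdk9, was called lower (1 of 77), where 5.56% of all genes were. Without the fold change limit, cdk9 and mki67 had an unadjusted p under 0.05 (2 of 77), against 9.23% of all genes. After Benjamini-Hochberg adjustment 0 of 77 cell cycle genes passed 0.05, as for all genes (0% of genes tested), and the smallest adjusted p in the family was 0.332. In bulk tissue, fewer cells of a type and less RNA per cell cannot be told apart, and this holds for each level given here.

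The replicate number paired the libraries, and entering it as a block in the model narrowed the spread. With that block 0 of 77 cell cycle genes were called higher (6.05% of all genes) and 2 lower, cdk9 and ccng2 (8.06% of all genes). At an adjusted p under 0.05 the block gave 0 cell cycle genes (0.536% of all genes), the smallest adjusted p being 0.0617 for cdk9.

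The count called changed with the scaling and, under either scaling, with the replicate block. Under total-count scaling 5 of 77 genes, cdk8, mcm3, cdc23, e2f3 and mki67, were called higher (11.7% of all genes) and 0 lower (1.64% of all genes). Total-count scaling with the replicate block, an alternative chosen after seeing the data, gave 16 of 77 higher (22.9% of all genes) and 0 lower (2.61% of all genes). These 16 were e2f7, cdc25b, cdc34b, cdk8, mcm3, top2a, aurkb, cdc23, ccnb1, e2f8, plk1, ccnd2b, e2f3, bub1, mki67 and ccnd1. Each share in the family lay below that over all genes. The libraries of the groups did not overlap in TMM-normalized CPM for 3 genes higher in tbx20-overexpressing hearts, e2f3, mki67 and cdc23 (6.45% of all genes), and for 2 lower ones, cdk9 and cdc34a (8.27% of all genes). On the FPKM scale 23 of 77 genes were higher without overlap (19.7% of all genes) and 0 lower (2.95% of all genes). That the share of 29.9% among cell cycle genes was above that of all genes was not tested.

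**Figure D2:**
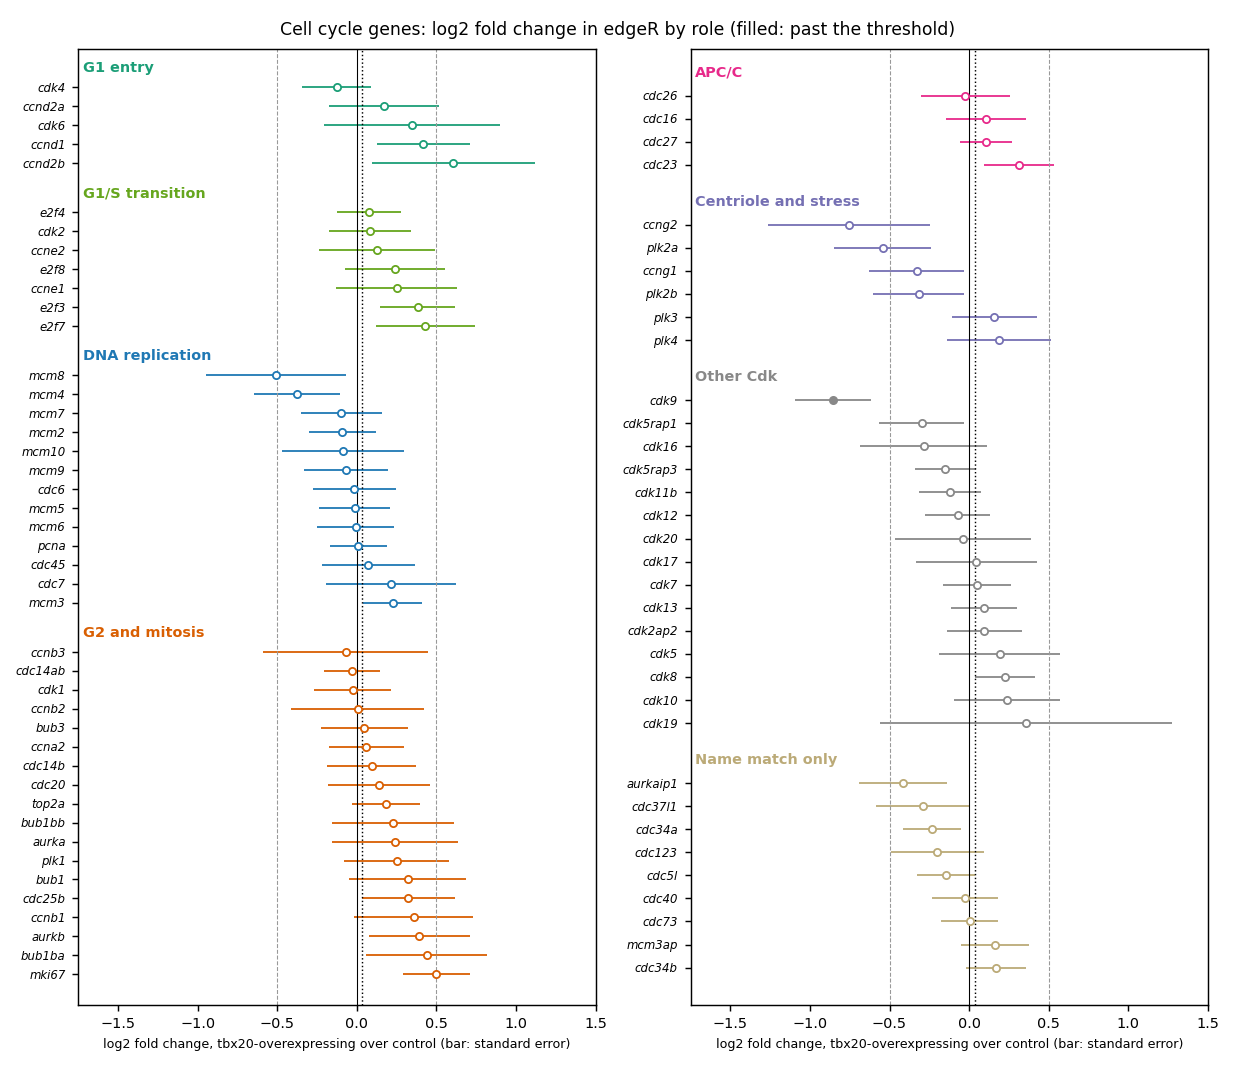
Log2 fold change of tbx20-overexpressing over control in edgeR (horizontal, points) with its standard error (bars) for the 77 tested genes, by role. Dashed lines mark 0.5 and -0.5, the dotted line marks the median of all tested genes (0.04), and cdk9, at -0.85, is the sole filled point, past the threshold.

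The genes of G1 entry had 7 members, of which 5 were tested and 0 were called. Their log2 fold changes ran from -0.13 (cdk4) to 0.61 (ccnd2b), 4 of 5 were positive, and the median was 0.35, against 0.04 over all genes. That median was the value of cdk6, which had only 6 to 30 counts per library (standard error 0.55). By pair, 2, 5 and 3 of the 5 were higher in tbx20-overexpressing replicates 1, 2 and 3. In all 3 pairs 2 were higher. The D-type cyclin ccnd1, which carries growth signals to Cdk4 and Cdk6, had 12.7, 19.6 and 24.0 CPM in control replicates 1, 2 and 3 and 18.7, 26.0 and 30.6 CPM in tbx20-overexpressing replicates 1, 2 and 3. Each tbx20-overexpressing library lay above the control of its number, by 0.56, 0.41 and 0.35 on the log2 scale, while the groups overlapped. The log2 fold change of ccnd1 was 0.42 (standard error 0.29, edgeR p = 0.185, adjusted p = 0.761, two-sided exact permutation p = 0.3). The unpaired 95% interval of ccnd1 was -0.24 to 1.08. With the replicate block ccnd1 had 0.44, with a narrower 95% interval of 0.07 to 0.80 that lay above 0. The blocked intervals of cdk1, cdk4 and ccnb1, also measured by PCR, included 0. The blocked value of ccnd1 (edgeR adjusted p = 0.207) stayed under the fold change limit of 0.5. Its unpaired value moved to 0.21 without control replicate 1, 0.25 without tbx20-overexpressing replicate 3, 0.64 without control replicate 3 and 0.78 under total-count scaling, none of them called, and it was called with the block and total-count scaling together (0.79, edgeR adjusted p = 0.0587).

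The kinase gene cdk4 had 17.9, 16.3 and 20.7 CPM in control and 14.2, 19.5 and 16.6 CPM in tbx20-overexpressing replicates 1, 2 and 3. It was higher in 1 of 3 pairs, with a log2 fold change of -0.13 (standard error 0.21, 95% interval -0.62 to 0.36, edgeR adjusted p = 0.934), which total-count scaling turned to 0.21. Changes of cdk4 within that interval cannot be told from no change. The paralogue ccnd2a had 24.3, 8.66 and 19.4 CPM in control and 20.1, 20.1 and 18.8 CPM in tbx20-overexpressing libraries. Control replicate 2 stood apart with less RNA of ccnd2a, and without it the log2 fold change turned from 0.17 (standard error 0.34) to -0.16. For ccnd2b, at 3.33 ± 1.72 CPM in control and 5.06 ± 2.28 CPM in tbx20-overexpressing hearts (SD, n = 3), the log2 fold change of 0.61 had a standard error of 0.51, although all 3 pairs were higher. Reads shared between such paralogues may have been split in the counting, which is not described.

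At the G1/S transition, 7 of 8 genes were tested and 0 were called. All 7 had positive log2 fold changes, from 0.08 (e2f4) to 0.43 (e2f7), with a median of 0.24. By pair, 5, 6 and 5 of the 7 were higher in tbx20-overexpressing replicates 1, 2 and 3, and 2 were higher in all 3 pairs. The kinase gene cdk2, the partner of cyclin E, had 6.26, 7.53 and 6.13 CPM in control and 7.14, 8.10 and 5.84 CPM in tbx20-overexpressing replicates 1, 2 and 3. The groups overlapped, and the log2 fold change of cdk2 was 0.08 (standard error 0.26, edgeR adjusted p = 0.978). Without tbx20-overexpressing replicate 2 it was -0.04. The factor e2f3, an E2F that switches on S-phase genes, had 8.98, 6.48 and 7.62 CPM in control and 9.64, 10.88 and 9.56 CPM in tbx20-overexpressing libraries. All 3 tbx20-overexpressing values of e2f3 exceeded every control value, with a log2 fold change of 0.38 (standard error 0.24, edgeR p = 0.142, adjusted p = 0.722, exact permutation p = 0.1, the smallest that 3 against 3 libraries allow). The repressing E2F genes e2f7 and e2f8 had 0.43 (standard error 0.31) and 0.24 (standard error 0.32), and the cyclin E genes ccne1 and ccne2 had 0.25 (standard error 0.38) and 0.13 (standard error 0.36).

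The DNA replication genes behaved otherwise in sign under TMM, with 4 of 13 tested genes positive and 9 negative, and 0 called. Their median log2 fold change was -0.02, against 0.04 over all genes, in a range of -0.51 (mcm8) to 0.23 (mcm3). Total-count scaling moved this median to 0.32, below the 0.38 of all genes, and gave 11 positive and 2 negative values. With either scaling 3 of the 13 lay above the median of all genes. The clamp gene pcna, widely used as a marker of cycling cells, had 75.3, 87.5 and 77.1 CPM in control and 90.1, 80.2 and 71.0 CPM in tbx20-overexpressing replicates 1, 2 and 3. Only pair 1 was higher, and the log2 fold change of pcna was 0.01 (standard error 0.18, 95% interval -0.40 to 0.42, edgeR adjusted p = 0.998), turning sign under RLE size factors and when control replicate 1 or 3 or tbx20-overexpressing replicate 1 was omitted.

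The helicase subunits did not share a sign. The largest negative value among the core subunits was that of mcm4, with 54.8, 61.9 and 33.6 CPM in control and 42.5, 43.5 and 29.6 CPM in tbx20-overexpressing replicates 1, 2 and 3. Each tbx20-overexpressing library was below its control in mcm4, and the groups overlapped (log2 fold change -0.38, standard error 0.27, edgeR adjusted p = 0.773, with the block -0.35, adjusted p = 0.285). By contrast mcm3 was higher in all 3 pairs, with 26.4, 32.0 and 30.5 CPM in control and 37.5, 35.9 and 30.6 CPM in tbx20-overexpressing libraries (log2 fold change 0.23, standard error 0.19, edgeR adjusted p = 0.818). The other core subunits lay near 0 under TMM, at -0.09 (mcm2), -0.01 (mcm5), -0.01 (mcm6) and -0.10 (mcm7), and between 0.25 and 0.33 under total-count scaling. The loader gene cdc6, which brings the helicase to origins, had -0.02 (standard error 0.26; 0.32 under total-count scaling), and cdc45, part of the active helicase, had 0.07 (standard error 0.29).

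The ratio of helicase subunits within a library does not depend on the scaling. These ratios and those below were chosen after values were seen and are given without a test. The highest of mcm2 to mcm7 exceeded the lowest by 2.07, 1.89 and 1.56 times in FPKM in control replicates 1, 2 and 3 and by 1.38, 1.74 and 1.51 times in tbx20-overexpressing replicates 1, 2 and 3. It was lower in tbx20-overexpressing hearts in 3 of 3 pairs, though the groups overlapped. The ratio of mcm4 to mcm5 was 1.28, 1.04 and 0.733 in the control libraries and 0.792, 0.786 and 0.778 with tbx20 overexpression. The latter were alike, while the control libraries differed among themselves.

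The genes of G2 and mitosis had 21 members, of which 18 were tested and 0 were called. Of these, 15 had positive log2 fold changes, in a range of -0.07 (ccnb3) to 0.50 (mki67), with a median of 0.20. By pair, 17, 8 and 16 of the 18 were higher in tbx20-overexpressing replicates 1, 2 and 3, and 6 were higher in all 3 pairs. The same counts were 7, 5 and 3 of 13 for DNA replication. The mitotic median rested on single libraries. Without tbx20-overexpressing replicate 3 it was -0.01, against 0.01 over all genes, and without control replicate 1 it was 0.04, against 0.06 over all genes. Tbx20-overexpressing replicate 3 also had the highest summed level of the macrophage markers, 2019.6 FPKM against 789 to 1188 FPKM in the other 5. It had the highest level of erythrocyte markers too, 3785 FPKM against 533 to 1656 FPKM. In summed FPKM the neutrophil, T and NK cell, B cell, thrombocyte, epicardial and endothelial lists were also highest there. The epicardial and fibroblast list stood at 3927 FPKM there and 3901 FPKM in tbx20-overexpressing replicate 2. The cardiomyocyte list was lowest there (29151 FPKM). FPKM leaves out the TMM factor, which was highest in this library (1.31), and the lists were not ranked under TMM. In TMM-normalized CPM the endothelial markers cdh5 (176 CPM) and egfl7 (48.3 CPM) were lowest in this library. The part of these cells in the mitotic median was not tested.

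The mitotic kinase gene cdk1 had 13.8, 24.3 and 20.1 CPM in control and 18.0, 19.97 and 19.2 CPM in tbx20-overexpressing replicates 1, 2 and 3. The tbx20-overexpressing values lay within the control range, and the log2 fold change of cdk1 was -0.03 (standard error 0.24, 95% interval -0.58 to 0.53, edgeR adjusted p = 0.994). Total-count scaling turned it to 0.35 and the replicate block to 0.0055, neither called. Its partner cyclin ccnb1 had 6.18, 10.8 and 14.0 CPM in control and 9.28, 11.4 and 19.1 CPM in tbx20-overexpressing libraries. Each pair of ccnb1 was higher, by 0.59, 0.08 and 0.44 on the log2 scale, while the groups overlapped (log2 fold change 0.36, standard error 0.37, 95% interval -0.50 to 1.21, edgeR p = 0.364, exact permutation p = 0.5). Without tbx20-overexpressing replicate 3 the value for ccnb1 was -0.0065. Within a library the ratio of ccnb1 to cdk1 was 0.258, 0.256 and 0.405 in the control libraries and 0.299, 0.331 and 0.575 with tbx20 overexpression, higher in 3 of 3 pairs but overlapping.

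The proliferation marker mki67, which coats mitotic chromosomes, had 18.4, 18.0 and 18.7 CPM in control and 20.3, 30.3 and 27.3 CPM in tbx20-overexpressing replicates 1, 2 and 3. The control libraries were closely alike and all tbx20-overexpressing libraries lay above them. The log2 fold change of mki67 was 0.499 (standard error 0.21, edgeR p = 0.0446, adjusted p = 0.519, exact permutation p = 0.1), just under the limit of 0.5. It was called with upper-quartile factors (0.53), with at least 10 counts in every library (0.51), under total-count scaling (0.85, and 0.83 with the block), with limma on log2(FPKM + 1) (0.61) and log2(FPKM + 0.1) (0.80) and without tbx20-overexpressing replicate 1 (0.64). It was not called in the other alternatives, the lowest value being 0.37 without tbx20-overexpressing replicate 2. No adjusted p of mki67 was under 0.05 in any alternative, the range being 0.0786 to 0.825. The topoisomerase gene top2a, which untangles replicated DNA, had 24.5, 31.0 and 30.2 CPM in control and 28.7, 28.3 and 40.0 CPM in tbx20-overexpressing replicates 1, 2 and 3. Its excess came from replicate 3 (log2 fold change 0.18, standard error 0.21, edgeR adjusted p = 0.904), without which it was -0.0040.

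Among the other mitotic genes, standard errors ran from 0.18 (cdc14ab) to 0.52 (ccnb3). The kinase genes aurkb, plk1 and aurka had log2 fold changes of 0.39 (standard error 0.32), 0.25 (standard error 0.33) and 0.24 (standard error 0.40). The checkpoint kinases bub1, bub1ba and bub1bb had 0.32, 0.44 and 0.23, with standard errors between 0.37 and 0.38, and each was higher in 3 of 3 pairs. The Cdk-activating phosphatase gene cdc25b had 0.32 (standard error 0.29) and was also higher in 3 of 3 pairs. The cyclin genes ccna2 and ccnb2 lay at 0.06 and 0.00. Values of cdc20, cdc14b, bub3 and cdc14ab were 0.14, 0.09, 0.05 and -0.03, with standard errors of 0.32, 0.28, 0.27 and 0.18.

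**Figure D3:**
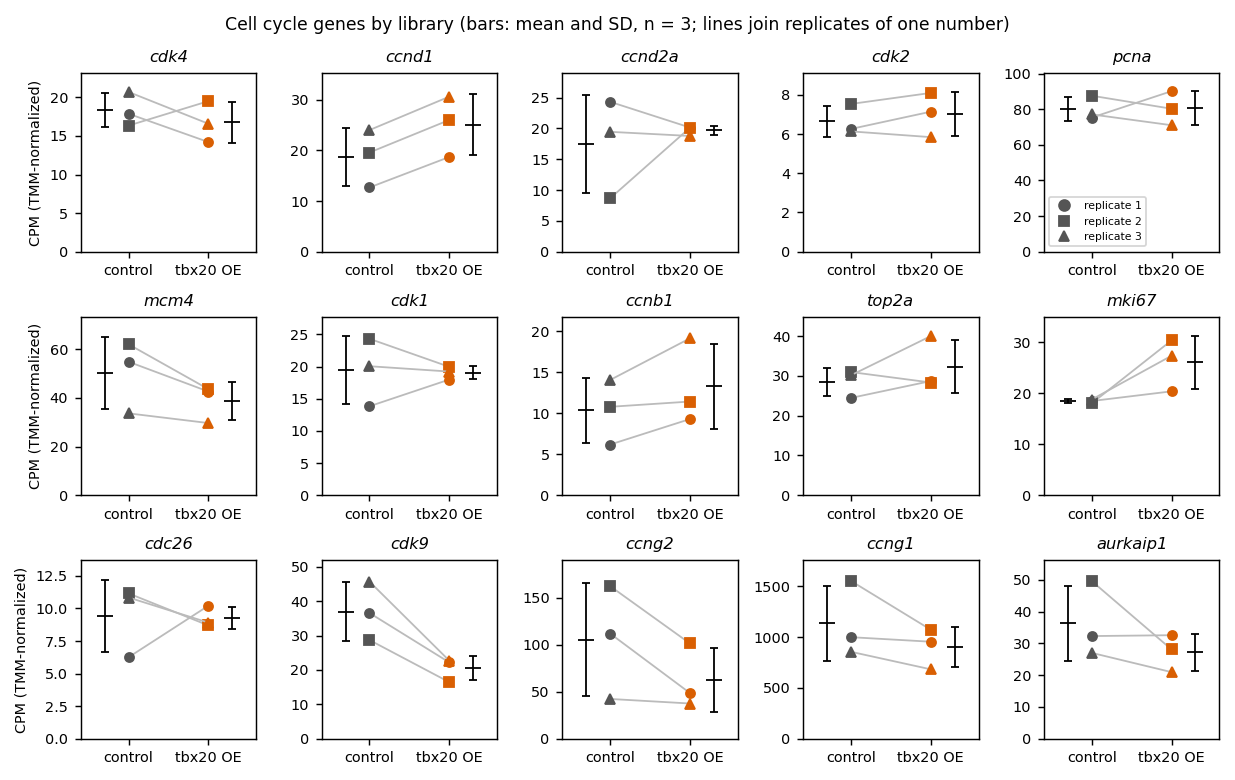
TMM-normalized CPM (vertical) of 15 cell cycle genes in each control (grey) and tbx20-overexpressing (orange) library, with lines joining libraries of the same replicate number and bars for the mean ± SD, n = 3. The 3 lines of cdk9 all slope down and its groups do not overlap, those of mki67 and ccnd1 all slope up, and those of cdk1, cdk4 and pcna differ in direction.

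The relation of mitotic to replication genes was then taken within each library, where a scaling factor cancels. The mean log2 CPM of the 18 mitotic genes minus that of the 13 replication genes was -1.27, -0.89 and -0.44 in control replicates 1, 2 and 3 and -0.93, -0.86 and -0.03 in tbx20-overexpressing replicates 1, 2 and 3. The difference was higher in each tbx20-overexpressing library than in its numbered control, by 0.34, 0.03 and 0.41, but replicates of a group differed more than the groups did. The groups differed by 0.26 on average, and by -0.03 without tbx20-overexpressing replicate 3 and 0.06 without control replicate 1. The ratio of mki67 to pcna in FPKM was 0.0433, 0.0363 and 0.0431 in the control libraries and 0.0400, 0.0669 and 0.0680 with tbx20 overexpression, higher in 2 of 3 pairs. The ratio of top2a to pcna was 0.0877, 0.0955 and 0.106 in the control libraries and 0.0861, 0.0954 and 0.152 with tbx20 overexpression, higher in 1 of 3 pairs.

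**Figure D4:**
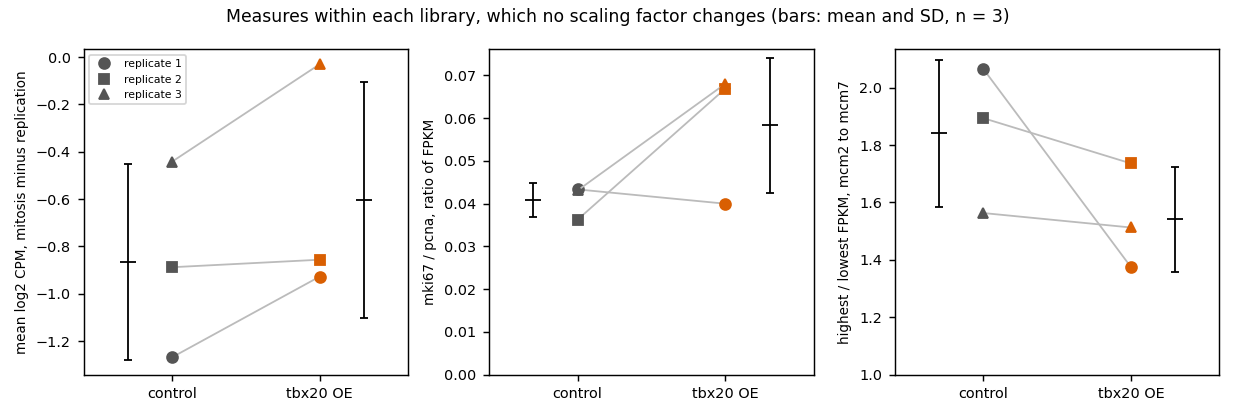
For each library, the mean log2 CPM of mitotic minus replication genes, the ratio of mki67 to pcna and the highest over the lowest FPKM of mcm2 to mcm7 (vertical axes, the last starting at 1), with lines joining libraries of the same replicate number and bars for mean ± SD, n = 3. The first is higher with tbx20 overexpression in all 3 pairs (by 0.34, 0.03 and 0.41), the second in 2 and the third in 0, and the groups overlap in each.

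The 4 subunit genes of the anaphase-promoting complex, all tested, had 0 calls and a median log2 fold change of 0.11. The structural subunit cdc23 had 7.33, 9.04 and 8.08 CPM in control and 9.78, 10.6 and 9.97 CPM in tbx20-overexpressing replicates 1, 2 and 3. These values of cdc23 did not overlap (log2 fold change 0.31, standard error 0.22, edgeR p = 0.193, exact permutation p = 0.1). The small subunit cdc26, the highest in FPKM (14.9 FPKM in control), had 6.26, 11.2 and 10.8 CPM in control and 10.2, 8.69 and 8.91 CPM in tbx20-overexpressing libraries. Its log2 fold change was -0.02 (standard error 0.28, edgeR adjusted p = 0.994), and it was positive under total-count scaling (0.33), upper-quartile factors (0.0022) and the replicate block (0.0061).

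The Polo-like kinases other than Plk1 and the G-type cyclins had 4 of 6 negative values, 0 called and a median of -0.32 under TMM, while total-count scaling gave 4 of 6 positive and a median of 0.05. The cyclin gene ccng2, whose product is known as a brake on the cycle in resting cells, had 112, 162 and 42.3 CPM in control and 48.5, 101 and 37.5 CPM in tbx20-overexpressing replicates 1, 2 and 3. The groups of ccng2 overlapped widely, but each tbx20-overexpressing library was below its control, with pair differences of -1.203, -0.68 and -0.18 on the log2 scale. Its log2 fold change was -0.75 (standard error 0.51, edgeR adjusted p = 0.753). With the replicate block ccng2 was called lower at -0.69 (standard error 0.21, edgeR adjusted p = 0.151). With the block and total-count scaling ccng2 was at -0.33 and not called, and leaving out a library moved the unpaired value between -1.30 (without tbx20-overexpressing replicate 2) and -0.32 (without control replicate 2). It was described in full after its values had been seen, because the pairing changed its call.

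The gene of highest level, ccng1, had 999, 1552 and 855 CPM in control and 954, 1072 and 683 CPM in tbx20-overexpressing replicates 1, 2 and 3. It was lower in 3 of 3 pairs, with a log2 fold change of -0.33 (standard error 0.30, edgeR adjusted p = 0.850), and total-count scaling turned this to 0.04. The genes plk2a and plk2b, whose products are known in centriole duplication and in stress responses, had -0.54 (standard error 0.31) and -0.32 (standard error 0.29), the latter turning to 0.05 under total-count scaling. Those of plk3 and plk4, the latter the chief kinase of centriole duplication, had 0.16 (standard error 0.27) and 0.19 (standard error 0.32).

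Of the 21 genes of other cyclin-dependent kinases and their partners, 15 were tested, with a median log2 fold change of 0.05 and 8 positive values, and cdk9 alone was called. Cdk9 is the kinase of the elongation factor P-TEFb, which releases paused RNA polymerase II, so its role is in transcription rather than in the division cycle. The RNA of cdk9 stood at 36.6, 28.7 and 45.7 CPM in control and 22.2, 16.5 and 22.7 CPM in tbx20-overexpressing replicates 1, 2 and 3. Every tbx20-overexpressing library lay below every control library, and the pairs fell by 0.72, 0.80 and 1.01 on the log2 scale. The mean was 37.0 ± 8.50 CPM in control and 20.5 ± 3.48 CPM in tbx20-overexpressing hearts (SD, n = 3). The log2 fold change of cdk9 was -0.85 (standard error 0.24, 95% interval -1.40 to -0.31, edgeR p = 0.00656, adjusted p = 0.332, exact permutation p = 0.1).

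The call of cdk9 held when any 1 of the 6 libraries was omitted, between -1.01 and -0.67. It also held in the blocked model (-0.84, standard error 0.16, edgeR adjusted p = 0.0617). It was lost under total-count scaling (-0.53, edgeR adjusted p = 0.421), also with the block (-0.49). The call was lost too with limma on log2(FPKM + 1) (-0.46) and log2(FPKM + 0.1) (-0.49). On the FPKM scale the control libraries had 18.8, 12.0 and 25.7 and the tbx20-overexpressing ones 12.7, 9.91 and 16.6, lower in 3 of 3 pairs but overlapping. Over all alternatives the adjusted p of cdk9 lay between 0.0617 and 0.571.

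The other kinases of transcription did not share the size of the change. The genes cdk7, of the factor TFIIH, and cdk8, of the Mediator complex, had 0.05 (standard error 0.21) and 0.22 (standard error 0.19). Those of cdk12 and cdk13, which also act on RNA polymerase II, had -0.07 (standard error 0.21) and 0.09 (standard error 0.21), and cdk11b, known in splicing, had -0.12 (standard error 0.19). Under total-count scaling cdk12 was at 0.28 and cdk11b at 0.22. The highest value of the group was that of cdk19, 0.36, from a gene of at most 0.527 mean FPKM with a standard error of 0.92.

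Finally, 9 tested genes were placed in none of the groups above, with known work such as ubiquitin transfer (cdc34a, cdc34b), splicing (cdc5l, cdc40) or transcription (cdc73). This placing does not mean that they have no part in the cycle. None was called (0 of 9). Their median was -0.14 with 6 of 9 negative under TMM, and 0.22 with 8 of 9 positive under total-count scaling. The highest in FPKM was aurkaip1, known as a protein of the mitochondrial ribosome, with 32.3, 49.6 and 27.003 CPM in control and 32.6, 28.1 and 20.9 CPM in tbx20-overexpressing replicates 1, 2 and 3 (log2 fold change -0.42, standard error 0.28, edgeR adjusted p = 0.747). The paralogues cdc34a and cdc34b had values of opposite sign, -0.23 (standard error 0.18) and 0.17 (standard error 0.19). The libraries of cdc34a did not overlap in CPM, at 29.7, 32.9 and 27.1 in the control libraries and 26.0, 26.7 and 23.8 with tbx20 overexpression. Under total-count scaling cdc34a had 0.12.

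Genes of the same pathways whose names lie outside the rule were counted in 7 lists, with 116 genes tested, of which 1 was called higher (3.27% of all genes) and 2 lower (5.56% of all genes). Under total-count scaling 8 were called higher (11.7% of all genes) and 0 lower (1.64% of all genes). Among 19 origin and fork proteins, orc6, a subunit of the origin recognition complex, was called lower, with 18.4, 20.6 and 7.91 CPM in control and 8.50, 10.8 and 4.84 CPM in tbx20-overexpressing libraries. It was lower in each pair with overlapping groups (log2 fold change -0.96, standard error 0.42, edgeR adjusted p = 0.538). The 19 polymerases, clamp loaders and fork enzymes had 0 calls, 4 positive values and a median of -0.10 under TMM, and 18 positive values and a median of 0.25 under total-count scaling. Among 6 genes of nucleotide supply, rrm2, a subunit of ribonucleotide reductase, was called higher, with 15.6, 14.7 and 19.8 CPM in control and 25.7, 28.8 and 19.6 CPM in tbx20-overexpressing libraries (log2 fold change 0.56, standard error 0.23, edgeR adjusted p = 0.502).

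The 18 condensin, kinetochore and checkpoint genes had 0 calls, 11 positive values and a median of 0.11. The 26 spindle and cytokinesis genes had 0 calls, 19 positive values and a median of 0.13, and the 14 cell cycle transcription factors and pocket proteins had 0 calls, 10 positive values and a median of 0.13. Among 14 inhibitors of cyclin-dependent kinases and inhibitory kinases, cdkn1ca, which encodes an inhibitor of the p57 type, was called lower, with 7.58, 9.34 and 18.1 CPM in control and 3.57, 4.65 and 8.56 CPM in tbx20-overexpressing libraries. Each pair was lower in cdkn1ca, with overlapping groups (log2 fold change -1.06, standard error 0.43, edgeR adjusted p = 0.502). The adjusted p of each of these genes missed 0.05. The calls of orc6, rrm2 and cdkn1ca in the unpaired fit were each lost in some of the 6 omissions of a library. That of orc6 was kept without control replicate 3 or tbx20-overexpressing replicate 2 alone, with values between -1.28 and -0.69 over the 6 omissions. That of rrm2 was kept without replicate 3 of either group alone, with values between 0.43 and 0.71. That of cdkn1ca was lost without control replicate 3 or tbx20-overexpressing replicate 1 or 2, with values between -1.52 and -0.59. Total-count scaling removed the unpaired calls of orc6 (-0.59) and cdkn1ca (-0.70). With the replicate block orc6 (-0.92, edgeR adjusted p = 0.069) and cdkn1ca (-1.06, edgeR adjusted p = 0.0621) were called lower. The block also called rrm2 higher (0.56, edgeR adjusted p = 0.25). With the block and total-count scaling these calls held, at -0.57 (orc6), -0.70 (cdkn1ca) and 0.91 (rrm2). Over the 116 genes the block called 2 higher (6.05% of all genes) and 2 lower (8.06% of all genes).

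Markers of the cell types in the tissue were counted in the same fit, in which 3.27% of all genes were called higher and 5.56% lower, and all adjusted p of the called markers lay above 0.05. Of 16 cardiomyocyte markers 3 were called lower (median log2 fold change -0.39), with summed levels of 41361 to 49809 FPKM in control and 29151 to 43827 FPKM in tbx20-overexpressing libraries. Under total-count scaling 2 were called lower (1.64% of all genes) and the median was -0.07. Of 12 endothelial and endocardial markers 3 were called lower (median -0.25, 229 to 371 against 294 to 386 FPKM), while total-count scaling gave 0 lower calls and a median of 0.09. Of 13 epicardial and fibroblast markers 2 were called higher (median 0.49, 1687 to 2019 against 2505 to 3927 FPKM). Of 13 macrophage markers 1 was called higher (median 0.50, 789 to 920 against 980 to 2019.6 FPKM). Total-count scaling, under which 11.7% of all genes were called higher, gave 10 higher calls among the epicardial and fibroblast markers and 7 among the macrophage markers. Of 3 tested T and NK cell markers 1 was called higher, and of 9 neutrophil, 12 erythrocyte, 6 thrombocyte and 1 B cell markers 0 were called. Under total-count scaling 3 thrombocyte, 2 erythrocyte and 1 T and NK cell marker were called higher, and 0 neutrophil and 0 B cell markers. With the replicate block 6 cardiomyocyte and 3 endothelial and endocardial markers were called lower (8.06% of all genes). Called higher with the block were 5 epicardial and fibroblast, 5 macrophage, 2 thrombocyte, 1 neutrophil and 1 T and NK cell marker (6.05% of all genes). Of the 10 markers called in the unpaired fit under TMM, wt1b alone kept its call whichever library was left out. The others lost it in 2 to 4 of the 6 omissions. The cardiomyocyte calls atp2a2a, cmlc1 and actc1a were each lost without control replicate 2 or tbx20-overexpressing replicate 2, and the endothelial calls pecam1, cdh5 and egfl7 without tbx20-overexpressing replicate 3, among others. No listed marker found in the table was at 0 in all libraries. The part of these cell types in the values of the cell cycle genes was not tested.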

How the data were processed

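RNA was measured in 6 libraries, 3 control and 3 tbx20-overexpressing, as the labels group them. The authors trimmed reads with Trimmomatic 0.30, aligned them with HISAT2 2.0.1 to the zebrafish GRCz10 annotation and deposited unnormalized counts per gene. The counting tool, the use of strand and the treatment of reads that map to several genes are not given in the sources used here. The authors' FPKM values divide these counts by exonic length and total count, and 190206 of 190206 could be recomputed within rounding. No column was left unused (0 columns).

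Counts were filtered with filterByExpr, scaled by TMM and tested on all genes with edgeR 4.0.16 in R 4.3.3 (quasi-likelihood F test, two-sided, Benjamini-Hochberg adjustment). The standard error is the log2 fold change divided by the square root of F. Single genes also had an exact permutation test on log2(CPM + 1), whose smallest p is 0.1. The tests were checked on simulated libraries, 3 against 3, in which 200 genes were changed by 2 on the log2 scale. There the main fit recovered 97% of these genes at an adjusted p under 0.05. Of its calls 6.28% were false, and of those of DESeq2 without its prior 10.9%. No replicate effect was simulated and no smaller change, so the check does not cover the smaller changes given here. Apart from the changed genes, all simulated libraries came from a common profile. The check therefore does not cover the difference between TMM and total-count scaling either. The replicate numbers pair the libraries, as the data show: deviations from group means correlated across 15686 genes at 0.453, 0.409 and 0.469 for like numbers and at most -0.132 for unlike ones. Subtracting group means forces part of this contrast, and genes are not independent. No 2 libraries of a group were duplicates. The p-values measure the spread between these libraries.

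All 91 genes matched the gene name table. The genes, roles and lists were chosen with earlier results of these data known. The role of mcm3ap was set after the files were seen. Values per library were given for the genes measured by PCR, mki67, top2a, pcna, called genes and the highest FPKM in each role group, and further ones (ccng2, mcm3, mcm4, e2f3, cdc23, cdc34a) were added after their values were seen. Alternatives were RLE, upper-quartile and total-count scaling, TMM without the 20 highest genes, no filter, at least 10 counts in every library, DESeq2 1.42.0 with and without its prior, the replicate block, leaving out each library, and limma 3.58.1 on FPKM values as log2(FPKM + 1) or log2(FPKM + 0.1). The replicate block with total-count scaling was added after seeing the data. No genome of the files' build was used, so no positions are given. A withheld item is not reported here.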

Additional observations from a re-analysis of the deposited data

How the results depend on the processing

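The count of cell cycle genes with an adjusted p under 0.05 stayed at 0 in every alternative run. The count called higher, 0 in the main fit, was 1 with upper-quartile factors and with at least 10 counts in every library, 5 under total-count scaling and with limma on log2(FPKM + 1), 8 with limma on log2(FPKM + 0.1), and 0 to 1 when a library was left out (1 without tbx20-overexpressing replicate 1). The count called lower, 1, was 0 under total-count scaling and both limma settings, and 1 to 3 when a library was left out (2 without control replicate 1, 3 without control replicate 3 or without tbx20-overexpressing replicate 2). Shares over all genes were taken only for the main, blocked and total-count fits, so the other counts cannot be read against a share. The median log2 fold change of all genes was 0.27 with limma on log2(FPKM + 1) and 0.37 on log2(FPKM + 0.1). The replication median of -0.02 became 0.32 under total-count scaling, 0.24 and 0.32 with limma on log2(FPKM + 1) and log2(FPKM + 0.1), and lay between -0.11 and 0.09 without 1 library. The mitotic median of 0.20 became 0.58 under total-count scaling, 0.51 with limma on log2(FPKM + 0.1) and -0.015 (without tbx20-overexpressing replicate 3) to 0.34 without 1 library (0.04 without control replicate 1). Total-count scaling and FPKM leave out the TMM factors by construction, and other causes were not tested.

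With the replicate block 2 genes were called lower and 0 higher. With the block and total-count scaling 16 were called higher and 0 lower, with medians of 0.32 for replication and 0.55 for mitosis. The block with TMM changed the call of ccng2 and of no other cell cycle gene. It turned cdk1 to 0.0055 and cdc26 to 0.0061. With the block and total-count scaling cdk1 was 0.36, cdk4 0.22, cdc26 0.36 and ccng1 0.043.

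Signs of single genes near 0 turned as follows. For cdk1, -0.03 became 0.0036 (upper quartile), 0.35 (total count), 0.34 and 0.36 (limma), and -0.21 to 0.16 without 1 library. For cdk4, -0.13 became 0.21 (total count), 0.18 and 0.21 (limma). For cdc26, -0.02 became 0.0022 (upper quartile), 0.33 (total count), 0.35 and 0.37 (limma), and -0.24 to 0.11 without 1 library. For ccng1, -0.33 became 0.039 (total count) and 0.042 in both limma settings. For pcna, 0.01 became -0.00018 (RLE), -0.0047 (DESeq2) and -0.0042 (DESeq2 with its prior), and -0.084 to 0.089 without 1 library. Without 1 library the ranges were -0.0065 to 0.66 for ccnb1, -0.0040 to 0.27 for top2a, -0.16 to 0.49 for ccnd2a and -0.037 to 0.20 for cdk2. With 3 libraries a group, standard errors of 0.16 to 0.92 limit what could be seen.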

Other observations

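Because cdk9 was the one gene of the family called in the main fit, the genes of its known partners were looked up after its values had been seen. None of the 7 genes reported was called in the main fit or with the replicate block (0 in either direction). In the main fit 3.27% of all genes were called higher and 5.56% lower. Under total-count scaling ccnt2b (0.60) and mepce (0.85) were called higher (11.7% of all genes). With the block and total-count scaling ccnt2b, hexim1 and mepce were called higher (22.9% of all genes). The cyclin T genes ccnt1, ccnt2a and ccnt2b, whose products activate Cdk9, had log2 fold changes of 0.22 (standard error 0.52), 0.02 (standard error 0.23) and 0.25. The genes hexim1, larp7 and mepce, whose products hold Cdk9 inactive in the 7SK particle, had 0.27, 0.09 and 0.53 (standard error of mepce 0.28, edgeR adjusted p = 0.651), and supt5h, a substrate, had -0.07 under TMM and 0.29 under total-count scaling.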
